A study of Mus musculus with 14 samples.

Results

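Elastic fibers let the aortic valve leaflet recoil with each heartbeat, and the 10 mouse genes that build and crosslink them were followed here in bulk RNA sequencing of the valve. The members were Eln, Fbn1, Fbn2, Fbln1, Fbln5, Emilin1, Mfap4, Lox, Loxl1 and Loxl2, taken by name from a deposited table of 56941 genes. All 10 were found and all 10 passed the filter on low counts, among 19145 genes that were tested. The study asked how angiotensin II (AngII) and blockade of the serotonin receptor HTR2B act on the valve.

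Valve leaflets came from 14 male wild type C57BL/6J mice that were 8 weeks old at the start, and every mouse ate the Breslow Western Diet, so no group was on normal chow. The 4 Ctrl mice were labelled untreated. The 2 LY mice received the HTR2B antagonist LY272015 at 3 mg/kg by intraperitoneal injection and no AngII. AngII was infused into 4 AngII mice at 1000 ng/kg/min from subcutaneous osmotic pumps for 28 days, and the 4 AngII+LY mice received both agents. The series places all AngII and AngII+LY mice 48 hours after pump removal, whereas the study's methods give pump removal for a subset, and the injection interval also differs between the 2 sources. For some dosed mice the treatment label carries another compound number than LY272015, and their group was taken from the sample title. Each library was taken as 1 mouse, although the labels say only that they are separate samples. The study's methods give more hearts per group for sequencing than there are libraries here. Libraries held 20990655 (AngII 4) to 73128220 (AngII 2) counts on genes.

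In an elastic fiber, crosslinked tropoelastin, the product of Eln, forms a core within a sheath of fibrillin microfibrils. Fibulins and EMILIN1 associate with these fibers and help bring tropoelastin together with the enzymes that join it. Lysyl oxidase and its relatives are copper enzymes that oxidize lysine residues so that elastin and collagen chains become covalently linked. In the leaflet elastic fibers lie mainly in the ventricularis, the layer that faces the ventricle, and their breakage is a known feature of diseased valves.

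Values below are normalized counts, meaning counts divided by the library size after TMM scaling relative to its mean, and comparisons between genes use normalized counts per kilobase of exon. By mean level per kilobase over the 14 libraries the order was Mfap4 (4812), Fbln1 (3980), Emilin1 (1844), Fbln5 (1406), Eln (1343), Loxl1 (1014), Fbn1 (496), Loxl2 (125), Lox (116) and Fbn2 (7.28). The first of these ranked 397th and the last 17135th among 19043 tested genes with a known length. Libraries of neighbouring genes in this order overlapped, except that the lowest Fbn1 library, at 248 per kilobase, lay above the highest Loxl2 library, at 213 per kilobase. In these means over all libraries, Mfap4, both fibulins and Emilin1 thus stood above Eln, the fibrillins stood below it, and 2 of the 3 lysyl oxidase genes were among the 3 lowest. By group mean, Fbln5 was below Eln in AngII mice (1207 against 1285) and in AngII+LY mice (780 against 1312). Emilin1 was also below Eln in AngII+LY mice, at 1254.

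Several libraries stood apart from the others. Ctrl 1 carried a smooth muscle signal, with 0.994% of its counts on 10 smooth muscle markers against 0.0262 to 0.186% in the other 13 libraries. Acta2, smooth muscle actin and the most abundant of these markers, was at 284730.0 normalized counts in Ctrl 1 and at 3938 to 52820 elsewhere. Ctrl 1 also had the highest share of macrophage (0.100%), melanocyte (0.0439%), adipocyte (0.0374%) and lymphocyte (0.00188%) markers of all libraries. Its share of erythroid markers, 0.963%, was the lowest, as was its mitochondrial share. The mitochondrial share of counts was 24.7 and 25.5% in AngII 3 and AngII 4, 20.2% in AngII+LY 1 and 4.00 to 12.7% in the other 11 libraries. Markers of valve interstitial cells and fibroblasts, led by Dcn, summed to 314282 to 523174 normalized counts in AngII+LY mice, below the 751215 to 894204 of AngII mice, and to 507432 to 887234 in Ctrl mice. The share of 10 cardiomyocyte markers, led by Tnnt2, ranged from 1.84 to 4.19% in AngII+LY mice, above the 0.774 to 1.55% of AngII mice, whereas Ctrl mice spanned 0.818 to 3.33%. That of 7 genes of chondrogenic valve matrix, led by Comp, was 0.0191 to 0.0299% in AngII+LY against 0.0476 to 0.0784% in Ctrl mice, and that of 8 adipocyte markers, led by Ucp1, was 0.00429 to 0.0130% against 0.0153 to 0.0374%. In bulk tissue, fewer cells of a type and less RNA per cell cannot be told apart.

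**Figure D1:**
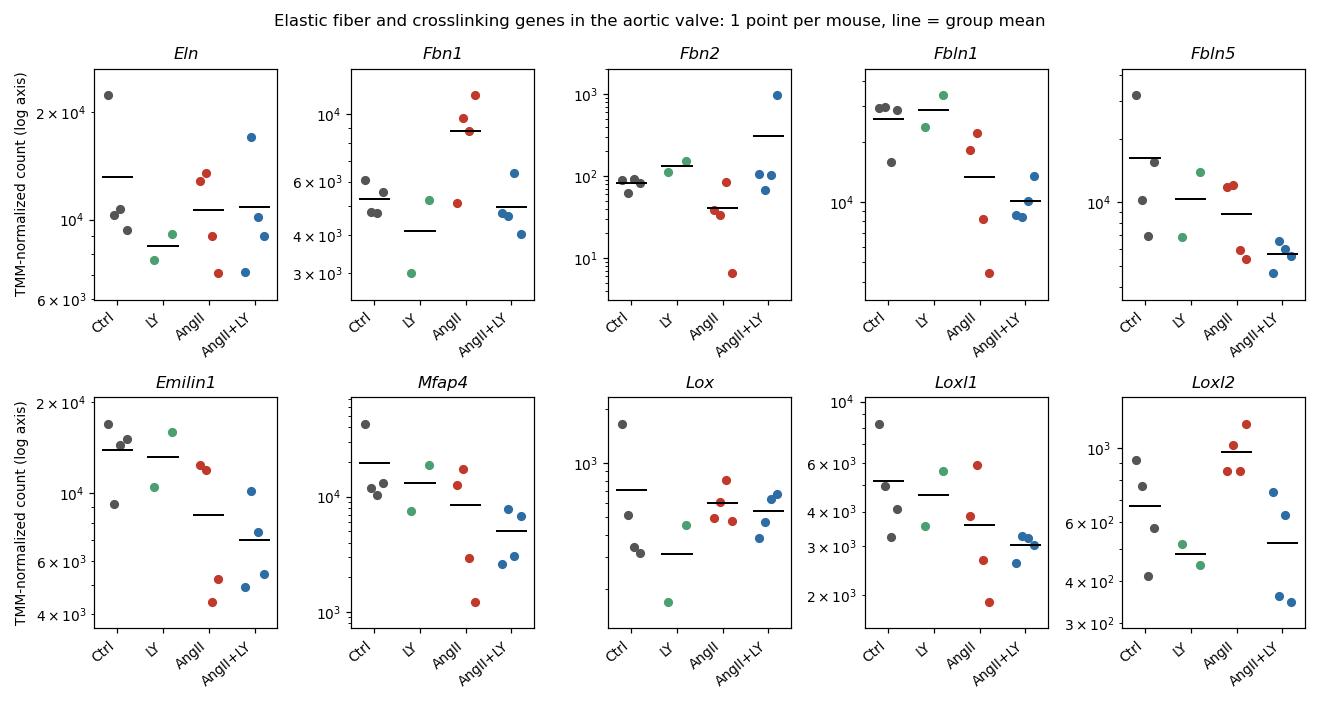
Normalized count of each of the 10 genes (log axis) in the 4 groups, with 1 point per mouse and a line at the group mean. Fbn1 and Loxl2 have their highest group mean in AngII mice, while Fbln1, Fbln5 and Mfap4 lie lower in all 4 AngII+LY mice than in all 4 Ctrl mice.

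Between AngII and Ctrl mice, Fbn1 was 1.66-fold and Loxl2 1.45-fold higher in the AngII group, and the other 8 genes had estimates below 0 (52.7% of all genes did), from 0.440-fold for Mfap4 to 0.849-fold for Lox. Without Ctrl 1, Eln (0.07) and Lox (0.62) were above 0 on the log2 scale and Mfap4 was at -0.46 in place of -1.19. edgeR's quasi-likelihood test, with a call set at adjusted p under 0.05 and a log2 fold change beyond 0.5 either way, called 0 of the 10 and 0% of all genes (smallest adjusted p 0.0573). At an unadjusted p under 0.05 there were 2 of the 10, against 25.2% of all genes, namely Fbn1 higher (13.4% of all genes) and Fbln1 lower (11.7%). No member was lower at it without Ctrl 1, Ctrl 4, AngII 3 or AngII 4, or in a fit on the compared groups alone. With Ctrl 1 left out 2 members were higher, beside 2203 higher and 1724 lower of 19145 genes. DESeq2's Wald test called 1 of the 10, Fbn1, at the cut-off set for edgeR's calls, where it called 13.8% of all genes. No member had AngII and Ctrl mice apart, where 7.46% of all genes were higher and 7.56% lower without overlap. With all libraries, the shares of members called, with unadjusted p under 0.05 or without overlap were thus near or below those of all genes. The share with an estimate below 0, 8 of the 10, was above the 52.7% of all genes. Leaving out AngII 2 gave 1 member higher and 5 lower at an unadjusted p under 0.05, beside 2634 and 2467 of 19145 genes. DESeq2, limma, a block on replicate number and the omission of AngII 1 each gave 1 and 3. All genes then stood at 3018 and 2433, 2509 and 2618, 2237 and 2194, and 2847 and 2816. The median log2 fold change was -0.62 over the 10 and -0.06 over all genes. Other measures moved with this comparison: the adipocyte marker share was 0.00218 to 0.00968% in AngII mice, below all Ctrl mice, and the mitochondrial share was above that of all Ctrl mice, at 9.83 to 25.5% against 4.00 to 7.52%. At an unadjusted p under 0.05 stood 6 of 8 adipocyte, 8 of 10 smooth muscle and 4 of 6 macrophage markers, with all 8 adipocyte and all 10 smooth muscle markers estimated below Ctrl. The smooth muscle share of Ctrl 3 and Ctrl 4, 0.0289 and 0.0294%, lay within the 0.0262 to 0.0432% of AngII mice, so Ctrl 1 and Ctrl 2 carried that difference. AngII mice had a macrophage share of 0.0117 to 0.0248%, overlapping with Ctrl mice only at the low end of their 0.0225 to 0.100%. The part of these in the members' values was not tested.

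AngII+LY mice compared with AngII mice had lower Fbn1 (0.565-fold) and Loxl2 (0.532-fold), and the other members ranged from 0.592-fold for Mfap4 to 7.50-fold for Fbn2. Both ends of that range depended on single libraries, since the log2 fold change of Mfap4 was -0.76 with all libraries and -0.15 without AngII 2, and that of Fbn2 is given without AngII+LY 4 below. edgeR called 0 of the 10 and 0% of all genes, with a smallest adjusted p of 0.0568. At an unadjusted p under 0.05 stood 3 of the 10, against 22.5% of all genes. They were Fbn1 and Loxl2 lower (12.4% of all genes) and Fbn2 higher (10.1%). By DESeq2 2 of the 10 were called, Fbn1 and Loxl2, against 10.8% of all genes. Only Loxl2 had the groups apart among the 10, in the direction of lower counts that 5.66% of all genes shared, and no member was higher without overlap, against 5.45% of all genes. The median log2 fold change was -0.33 over the members and -0.02 over all genes. By share of counts, interstitial cell and fibroblast markers were lower and cardiomyocyte markers higher without overlap in this comparison, with 6 of 11 and 6 of 10 at an unadjusted p under 0.05. All 10 smooth muscle markers were also estimated higher, 2 of them at that threshold. Their share was 0.186 and 0.165% in AngII+LY 2 and AngII+LY 4, against 0.0262 to 0.0432% in AngII mice. The part of these markers in the members' values was not tested.

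In AngII+LY mice Fbln5 was at 0.351-fold, Fbln1 at 0.392-fold, Mfap4 at 0.260-fold, Emilin1 at 0.503-fold and Loxl1 at 0.588-fold of the Ctrl level. All but Fbn2 had an estimate below 0, as had 51.9% of all genes, and the median log2 fold change was -0.58 over the 10 and -0.02 over all genes. These 5 were the members that were lower at an unadjusted p under 0.05, a direction and threshold that 6.14% of all genes met. The sixth at that threshold was Fbn2, which was higher, as were 4.89% of all genes. In 3 of the 10, Fbln1, Fbln5 and Mfap4, every AngII+LY mouse was below every Ctrl mouse, against 4.89% of all genes, and none was above, against 3.27%. By edgeR 0 of the 10 and 0% of all genes were called (smallest adjusted p 0.0857), while 6 of the 10 and 11% of all genes passed without adjustment. DESeq2 called 2 of the 10, Fbln1 and Fbln5, where it called 1.79% of all genes. Without Ctrl 1, 3 of the 10 remained lower at an unadjusted p under 0.05 (Fbln1, Fbln5 and Emilin1), beside 834 of 19145 genes. The chondrogenic and adipocyte marker shares given above were lower than in all Ctrl mice. That of interstitial cell and fibroblast markers was 0.521 to 0.950% in AngII+LY and 0.974 to 1.87% in Ctrl mice. Of the latter markers 7 of 11 stood at an unadjusted p under 0.05. At the same threshold stood 4 of 7 chondrogenic, 3 of 8 adipocyte, 5 of 10 cardiomyocyte and 4 of 6 macrophage markers. Of the 10 cardiomyocyte markers 9 were estimated above Ctrl, although the shares given above overlapped. The mitochondrial share was 10.1 to 20.2% in AngII+LY mice, above the 4.00 to 7.52% of Ctrl mice without overlap. The part of these in the comparison was not tested. This comparison and that of AngII with Ctrl use the same Ctrl mice, and both comparisons with AngII use the same AngII mice, so their estimates are not independent.

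**Figure D2:**
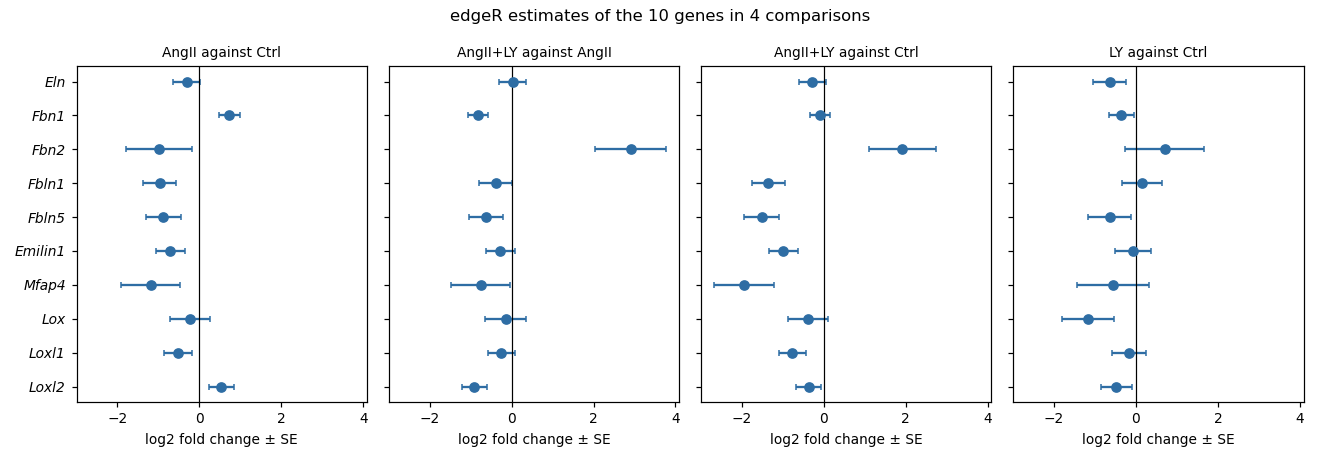
Log2 fold change from edgeR's quasi-likelihood fit with its standard error for the 10 genes in 4 comparisons; the vertical line marks no difference. Fbn1 and Loxl2 are above 0 in AngII against Ctrl and below 0 in AngII+LY against AngII, and Mfap4, Fbln5 and Fbln1 lie furthest below 0 in AngII+LY against Ctrl. Fbn2, whose error is the widest, lies above 0 there.

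Eln encodes tropoelastin, the soluble monomer of the elastic core, and lies on chromosome 5 at chr5:134731445-134776322 (GRCm39, minus strand). Its normalized counts were 22320.3, 10310.2, 10709 and 9348 in Ctrl 1 to 4, 7720.1 and 9133 in LY, 12798, 13552, 9026 and 7094 in AngII, and 7137, 17059, 10147 and 8992 in AngII+LY mice. Ctrl 1 was the highest library, and both groups with AngII reached above and below Ctrl 2 to 4. The log2 fold change was -0.31 (SE 0.33, adjusted p = 0.589) between AngII and Ctrl and 0.03 (SE 0.33, adjusted p = 0.974) between AngII+LY and AngII, both by edgeR. Without Ctrl 1 the AngII against Ctrl estimate was 0.07. Both LY mice were below all Ctrl mice, as were 6.41% of all genes, but the log2 fold change of -0.64 (SE 0.41) had an edgeR adjusted p of 1 and was -0.26 without Ctrl 1.

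Fibrillin-1, the product of Fbn1 (chr2:125142514-125349913, minus strand), is the main building block of microfibrils after birth, and its mutation causes Marfan syndrome in humans. Fbn1 was at 6085, 4753, 4728 and 5539 normalized counts in Ctrl mice, 3013 and 5234 in LY, 5089.6, 9672, 8775 and 11505 in AngII, and 4737, 4614, 6382 and 4049 in AngII+LY mice. AngII 2, 3 and 4 lay above every library of the other groups, and AngII 1 lay within the Ctrl range. The estimate was 0.73 on the log2 scale (SE 0.25, edgeR adjusted p = 0.103) for AngII against Ctrl and -0.82 (SE 0.25, edgeR adjusted p = 0.0894) for AngII+LY against AngII, while AngII+LY and Ctrl differed by -0.09 (SE 0.25, edgeR adjusted p = 0.929). With AngII 1 left out, edgeR called Fbn1 in the first of these comparisons (log2 fold change 0.92, adjusted p = 0.0319) and in the second (-1.01, adjusted p = 0.0368), where it called 9.02% and 4.4% of all genes. Over all omissions of 1 library the estimates ranged from 0.57 to 0.92 (edgeR adjusted p 0.0319 to 0.280) and from -1.01 to -0.67 (edgeR adjusted p 0.0368 to 0.220). DESeq2's adjusted p with all libraries was 0.0299 and 0.0232.

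Fibrillin-2, from Fbn2 on chromosome 18, is the fibrillin of developing tissue, and it was the scarcest of the members. Its normalized counts were 90.2, 62.5, 92.9 and 82.5 in Ctrl, 113 and 154 in LY, 38.3, 33.4, 84.1 and 6.62 in AngII, and 107, 67.5, 104 and 963 in AngII+LY mice. The library of AngII+LY 4 stood 9-fold above the next of its group, and AngII 4, the shallowest library, held 2 Fbn2 counts. The 7.50-fold difference between AngII+LY and AngII (log2 2.91, SE 0.86, edgeR adjusted p = 0.0852) was 1.17 on the log2 scale without AngII+LY 4, and that against Ctrl went from 1.92 to 0.18. DESeq2 gave no p-value for Fbn2. The 2 LY mice were above all Ctrl mice, a pattern that 5.64% of all genes showed.

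Mfap4 (chr11:61376212-61379727, plus strand) encodes a microfibril-associated glycoprotein that binds tropoelastin and fibrillin. It was at 42506, 11854, 10292 and 13026 normalized counts in Ctrl, 7524 and 18867 in LY, 12671, 17302, 2914 and 1228 in AngII, and 2619.8, 7784, 3062 and 6732 in AngII+LY mice. All AngII+LY mice were below all Ctrl mice, whereas the AngII mice split into a pair within the Ctrl range and a pair far below it. The log2 fold change of AngII+LY against Ctrl was -1.94 (SE 0.73, edgeR adjusted p = 0.349) and became -1.21 without Ctrl 1, the library with the smooth muscle signal, at an unadjusted p of 0.104. For AngII against Ctrl it was -1.19 (SE 0.72, edgeR adjusted p = 0.320) with all libraries and -0.46 without Ctrl 1.

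Fbln5 (chr12:101712556-101785429, minus strand) and Fbln1 (chr15:85090150-85170737, plus strand) encode fibulins, glycoproteins associated with elastic fibers. Fibulin-5 binds tropoelastin, integrins and lysyl oxidase-like 1 and is required for ordered elastic fibers in mice, and fibulin-1 binds tropoelastin and fibronectin. They are shown with the sequence upstream of their RefSeq starts, because both were apart between AngII+LY and Ctrl mice and were the 2 members called by DESeq2 there. Sequences come from the RefSeq table (GRCm38.p6), were placed on GRCm39 by an exact match, and keep only bases outside annotated exons, which left out 51 bases of the Fbln5 stretch. Of the 10 members, Fbn1, Emilin1, Fbln5 and Fbln1 have an entry in that table and Eln, Mfap4, Loxl1 and Loxl2 were not matched. The upstream sequences of Fbn2 and Lox were not examined, whether or not the table holds them. Capitals mark matches on either strand to 4 short motifs, and no match overlaps another. The GC box was searched as GGGCGG. For the box that binds NF-Y the letters were CCAAT. The SMAD box, which SMAD proteins of the TGF-beta pathway bind, was searched as CAGAC. The letters of the TATA box were TATAAA.
Fbln1, chr15:85089900-85090149, plus strand: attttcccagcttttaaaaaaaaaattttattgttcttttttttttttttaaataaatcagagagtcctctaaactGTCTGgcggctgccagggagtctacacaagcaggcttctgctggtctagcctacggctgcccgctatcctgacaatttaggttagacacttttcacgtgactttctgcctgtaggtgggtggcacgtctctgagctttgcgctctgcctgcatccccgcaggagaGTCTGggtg
Fbln5, chr12:101785430-101785628, minus strand: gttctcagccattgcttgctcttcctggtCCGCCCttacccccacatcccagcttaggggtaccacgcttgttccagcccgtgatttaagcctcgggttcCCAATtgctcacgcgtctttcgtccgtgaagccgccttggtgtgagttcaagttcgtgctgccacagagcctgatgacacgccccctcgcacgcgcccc

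The Fbln1 stretch of 250 bases held 2 SMAD box matches, a motif in 42.2% of 32851 RefSeq promoters of that length, and none of the other motifs. The Fbln5 stretch of 199 bases held 1 GC box and 1 NF-Y box match, found in 24.4% and 28.2% of promoters of that length, and no SMAD or TATA box match. GC content was 46.4% for Fbln1 and 60.3% for Fbln5, against a median of 52.4% over all promoters. The 2 stretches thus shared none of these motifs, and a match to so short a motif is a description of the sequence only.

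Fbln5 was at 32111, 10274, 6967 and 15513 normalized counts in Ctrl, 6879 and 13903 in LY, 11842, 12047, 5947 and 5374 in AngII, and 4641, 6563, 6015 and 5551 in AngII+LY mice. AngII+LY mice were low and close together, with the highest of them just below the lowest Ctrl mouse. The log2 fold change against Ctrl was -1.51 (SE 0.43, edgeR adjusted p = 0.264, DESeq2 adjusted p = 0.0216), and without Ctrl 1 it was -0.94, at an unadjusted p of 0.0194. AngII mice differed from Ctrl by -0.88 (SE 0.42, edgeR adjusted p = 0.209), and by -0.31 without Ctrl 1. For Fbln1 the counts were 29579.7, 29675, 15925 and 28656 in Ctrl, 23591 and 34088 in LY, 18204, 22178, 8231 and 4434 in AngII, and 8576, 8442, 10166 and 13486 in AngII+LY mice. Ctrl 3 was the low Ctrl library here, and Ctrl 1 did not stand out. Accordingly the AngII+LY against Ctrl estimate was -1.35 (SE 0.41, edgeR adjusted p = 0.277, DESeq2 adjusted p = 0.0349) with all libraries and -1.28 without Ctrl 1. For AngII against Ctrl it was -0.97 (SE 0.40, edgeR adjusted p = 0.155).

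Emilin1 (chr5:31070717-31078622, plus strand) encodes a glycoprotein at the interface of elastin and microfibrils, and mice that lack it develop aortic valve disease. Its normalized counts were 16934, 9259, 14413 and 15081 in Ctrl, 10507 and 15922 in LY, 12385, 11977, 4393 and 5221 in AngII, and 4919.6, 10178, 7472 and 5432 in AngII+LY mice. AngII+LY and Ctrl mice overlapped through Ctrl 2 and AngII+LY 2 alone. AngII+LY mice differed from Ctrl by -0.99 on the log2 scale (SE 0.35, edgeR adjusted p = 0.335) and AngII mice by -0.71 (SE 0.35, edgeR adjusted p = 0.223). As for Eln, Fbln1, Fbln5, Mfap4 and Loxl1, AngII 3 and AngII 4, the AngII libraries with the highest mitochondrial share, were lower than AngII 1 and AngII 2. The part of mitochondrial content and depth in this split was not tested.

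Of the crosslinking enzymes, Loxl1 (chr9:58195014-58220495, minus strand) is the one that fibulin-5 directs to elastin. It was at 8292, 4932, 3249 and 4101 normalized counts in Ctrl, 3557 and 5623 in LY, 3862, 5901, 2682 and 1886 in AngII, and 2599, 3259, 3221 and 3015 in AngII+LY mice. AngII+LY mice were close together, with an SD of 302 around a mean of 3023 against 2209 around 5143 in Ctrl mice, and overlapped with Ctrl 3 alone. Their log2 fold change against Ctrl was -0.77 (SE 0.34, edgeR adjusted p = 0.422) and -0.44 without Ctrl 1. Lox, on chromosome 18, encodes the founding lysyl oxidase of the family. Its counts were 1650.2, 512, 344 and 316 in Ctrl, 169.5 and 453 in LY, 497, 609.6, 811 and 476 in AngII, and 382, 469, 635 and 677 in AngII+LY mice. Ctrl 1 was more than 3-fold above the other Ctrl libraries and set the sign, since the AngII against Ctrl estimate of -0.24 (SE 0.49, edgeR adjusted p = 0.804) was 0.62 without it and that of AngII+LY against Ctrl went from -0.38 to 0.47.

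Loxl2 (chr14:69846209-69933283, plus strand) encodes a lysyl oxidase relative that crosslinks collagen IV and fibrillar collagen and is known from fibrotic tissue. It was at 923, 771, 415 and 577 normalized counts in Ctrl, 516 and 449 in LY, 855, 1019, 852 and 1178 in AngII, and 737, 362, 631 and 348 in AngII+LY mice. All AngII mice were above all AngII+LY mice, while Ctrl 1 reached into the AngII range. AngII+LY against AngII gave a log2 fold change of -0.91 (SE 0.30, edgeR adjusted p = 0.111, DESeq2 adjusted p = 0.0392), which ranged from -1.13 to -0.75 as single libraries were left out. AngII against Ctrl gave 0.54 (SE 0.30, edgeR adjusted p = 0.281). The 3 lysyl oxidase genes therefore had estimates of different sign for AngII against Ctrl, with Lox and Loxl1 below 0 and Loxl2 above, although Lox lay above 0 in limma and without Ctrl 1, and Loxl1 was at 0.09 after correction for GC content. The Loxl1 estimate was -0.52 with all libraries and ran from -0.87 to -0.19 as single libraries were left out.

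LY272015 without AngII was represented by 2 mice. None of the 10 was called against Ctrl by edgeR (0% of all genes) or DESeq2 (0.11% of all genes), and 0 of the 10 against 1.39% of all genes had an unadjusted p under 0.05. Estimates ran from -1.18 for Lox (SE 0.63) to 0.70 for Fbn2 (SE 0.96) on the log2 scale, with a median of -0.42 over the 10 and -0.03 over all genes. Lox was at -0.33 without Ctrl 1 and at -2.06 without LY 2. The mitochondrial share was 8.62 and 9.76% in LY mice, above all Ctrl mice, and all 10 smooth muscle markers had estimates below Ctrl, 4 of them at an unadjusted p under 0.05. Their part in the members' values was not tested. The standard errors, of 0.31 or more for every member, leave room for changes of the size seen with AngII. The difference between the LY effect with AngII and without it was tested as an interaction, in which edgeR called 0 of the 10 and 0% of all genes, and 0 of the 10 against 13.3% of all genes had an unadjusted p under 0.05. The largest of these was Fbn2, at 2.21 (SE 1.32, edgeR adjusted p = 0.470), and at 0.47 without AngII+LY 4. DESeq2 called 0 of the 10 in it, against 1.1% of all genes.

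GC content ran with the library differences in these data. Exonic GC was 44.3% in Lox and 59.3% in Loxl1, against a median of 48.6% over the tested genes, and 7 of the 10 were above that median. Correcting the libraries for the GC content of genes moved the median of all genes by up to 0.2 on the log2 scale, to 0.15 for AngII against Ctrl and 0.20 for AngII+LY against Ctrl. The median of the members went from -0.62 to -0.25 in AngII against Ctrl, where 6 in place of 8 were below 0. It went from -0.33 to -0.56 in AngII+LY against AngII, with 8 below 0 as before, and from -0.58 to -0.32 in AngII+LY against Ctrl, with 7 in place of 9. After the correction, 2 of the 10 had an unadjusted p under 0.05 in AngII against Ctrl (15.3% of all genes), 4 in AngII+LY against AngII (15.2%), 5 in AngII+LY against Ctrl (15.4%) and 0 in LY against Ctrl (1.43%). Fbn1 (1.28) and Loxl2 (1.06) were the members higher in AngII than in Ctrl, against 12.3% of all genes, and none was lower, against 3.03%. In AngII+LY against AngII, Fbn1 (-1.08), Loxl1 (-0.56) and Loxl2 (-1.10) were lower at that threshold, against 6.13% of all genes, and Fbn2 (2.96) was higher, against 9.03%. Against Ctrl, Fbln1 (-1.07), Fbln5 (-1.26), Emilin1 (-0.73) and Mfap4 (-1.67) were lower in AngII+LY mice, against 3.07% of all genes, and Fbn2 (2.06) was higher, against 12.4%. The correction turned the sign of Eln in 3 comparisons, of Loxl1 in AngII against Ctrl, of Lox in AngII+LY against AngII, of Fbn1 in AngII+LY against Ctrl and of Emilin1 in LY against Ctrl, and edgeR called no member after it.

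**Figure D3:**
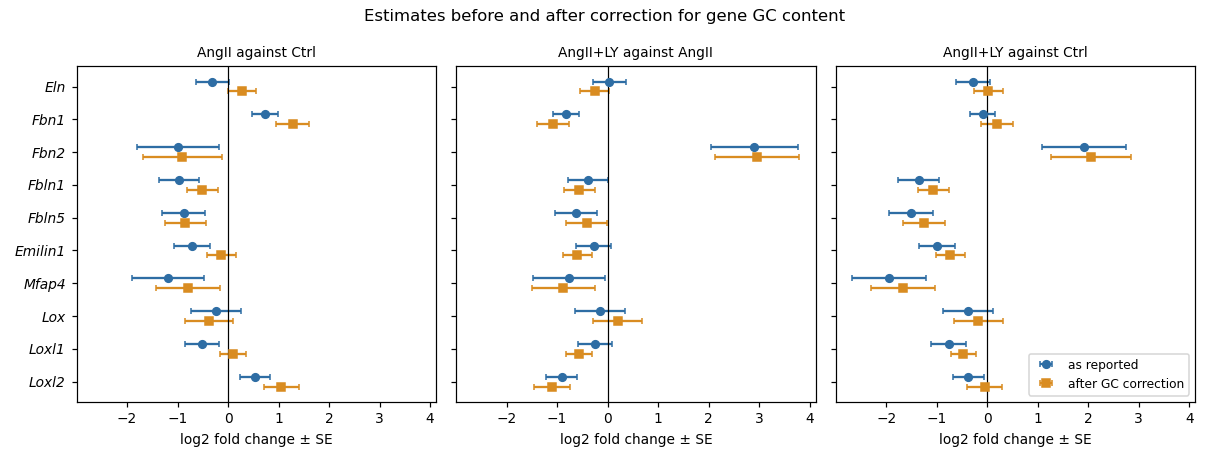
Log2 fold change with standard error of the 10 genes as reported (circles) and after the GC correction (squares) in 3 comparisons. Fbn1 and Loxl2 lie further above 0 in AngII against Ctrl after the correction, Eln and Loxl1 cross 0 there, and the fibulins, Emilin1 and Mfap4 stay below 0 in AngII+LY against Ctrl.

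Across the 14 mice the 10 genes did not vary as 1 group. Mfap4, Loxl1, Fbln5, Fbln1 and Emilin1 varied together, with Pearson's r of 0.76 or more for each of their pairs on log2(normalized count + 1). Within groups r was lowest for Fbln1 and Emilin1 (0.56) and for Emilin1 and Loxl1 (0.65). The closest pair was Mfap4 and Loxl1 (r = 0.93, permutation p = 1.00e-05, adjusted p = 0.000225 over 45 pairs; Spearman's rho = 0.96, permutation p = 1.00e-05). Their r was 0.90 within groups and 0.86 with the 2 libraries farthest from the Mfap4 median left out. Here and below these 2 libraries were chosen by the first named gene of a pair only. The p of 1.00e-05 is the smallest these permutations can give. Fbln5 and Loxl1, whose products bind each other, followed at r = 0.89 (permutation p = 1.00e-05, adjusted p = 0.000225; rho = 0.94, permutation p = 1.00e-05), with 0.88 within groups and 0.88 without the 2 farthest libraries. Eln was less close to Mfap4 (r = 0.69, permutation p = 0.00644, adjusted p = 0.0223; rho = 0.70, permutation p = 0.00688), with 0.82 within groups and 0.66 without the 2 farthest libraries. Fbn1 and Loxl2 formed a second pair (r = 0.71, permutation p = 0.00359, adjusted p = 0.0135; rho = 0.78, permutation p = 0.0017), but their r was 0.38 within groups and 0.52 without the 2 farthest libraries. Eln and Fbn1, core and sheath of the same fiber, were not correlated (r = 0.03, permutation p = 0.911, adjusted p = 0.940; rho = 0.05, permutation p = 0.854), with -0.04 within groups and 0.12 without the 2 farthest libraries. The 14 points share the library differences described above, among them the smooth muscle signal of Ctrl 1.

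**Figure D4:**
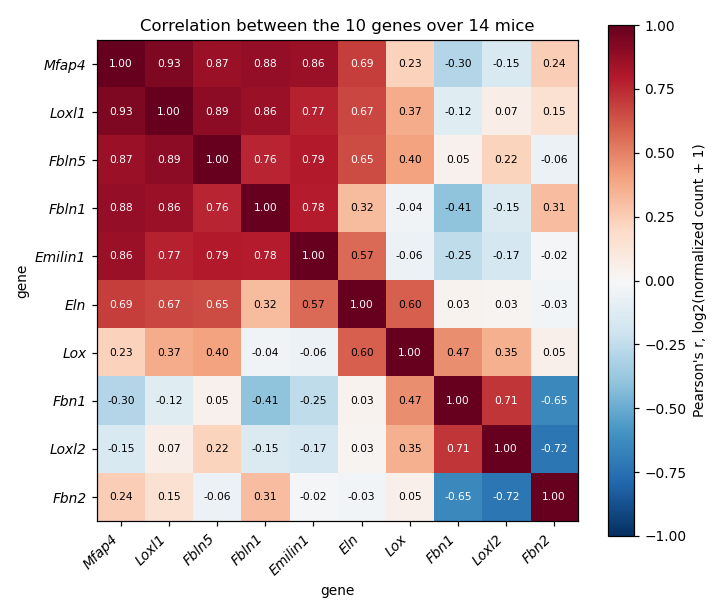
Pearson's r between the 10 genes over 14 mice, from log2(normalized count + 1), with the value in each cell and color from blue (-1) to red (1). Mfap4, Loxl1, Fbln5, Fbln1 and Emilin1 form a block with r from 0.76 to 0.93, while Fbn1 and Loxl2 pair with each other at 0.71. Their r to Fbn2 is -0.65 and -0.72, but -0.34 and -0.44 within groups. Without the 2 libraries farthest from the median it is -0.28 for Fbn1, by its own median, and -0.51 for Loxl2, by the Fbn2 median.

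Among all tested genes, the 5 closest to Eln over the 14 libraries were Tgfb1i1 (r = 0.90), Gm13669 (0.89), Hoxa3 (0.88), Mical2 (0.88) and Dpysl3 (0.87). Gm13669 and Hoxa3 were scarce, at 25.7 and 29.6 normalized counts on average. For Fbn1 they were Col5a2 (r = 0.91), a fibrillar collagen chain, Trip4 (0.89), Fstl1 (0.89), a secreted glycoprotein, Armc8 (0.88) and Clasp2 (0.88). With the 2 libraries farthest from the median of Eln or of Fbn1 left out, Tgfb1i1 was at 0.73 to Eln and Col5a2 at 0.81 to Fbn1.

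A further 54 genes of the elastic fiber system were examined in 8 lists, of which 50 were tested (Tll2, Mmp7, Ctsg and Elane were too low). edgeR called 0 of the 50 in every comparison. Between AngII and Ctrl 4 were higher and 12 lower at an unadjusted p under 0.05, and DESeq2 called 9. The corresponding numbers were 3 higher and 6 lower, with 5 called by DESeq2, for AngII+LY against AngII, and 2 higher and 17 lower, with 5 called by DESeq2, for AngII+LY against Ctrl. The shares of all genes are those given above, 13.4% and 11.7%, 10.1% and 12.4%, and 4.89% and 6.14% at the unadjusted threshold, and 13.8%, 10.8% and 1.79% called by DESeq2. After GC correction the counts were 6 higher and 5 lower, 1 and 9, and 3 and 12, where the shares of all genes were 12.3% and 3.03%, 9.03% and 6.13%, and 12.4% and 3.07%. Without Ctrl 1 the counts were 4 and 5, 4 and 6, and 2 and 12. Of all 19145 genes, 2203 were higher and 1724 lower without Ctrl 1 in the first comparison, 1866 and 2279 in the second, and 625 and 834 in the last. LY against Ctrl had 1 of the 50 at that threshold, against 1.39% of all genes. In the interaction 5 of the 50 were lower at it, against 7.64% of all genes, and DESeq2 called 1, Efemp1, against 1.1%. The lists were chosen with earlier results known.

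Microfibril glycoproteins and latent TGF-beta binding proteins formed the first of these lists. Mfap5, which encodes the microfibril glycoprotein MAGP-2, was at 17438 to 20738 normalized counts in AngII and 11176 to 14296 in Ctrl mice, without overlap (log2 fold change 0.64, SE 0.20, edgeR adjusted p = 0.0867). Ltbp4, a latent TGF-beta binding protein that also guides fibulin-5 onto microfibrils, was at 11598 to 50228 against 54528 to 77599, again without overlap (-1.07, SE 0.34, edgeR adjusted p = 0.0897), and its estimate was -0.54 after GC correction. In all, 3 of 6 genes of that list were at an unadjusted p under 0.05 in AngII against Ctrl, 1 higher and 2 lower, against 13.4% and 11.7% of all genes. After GC correction it was 2 higher and 1 lower, against 12.3% and 3.03%, with Ltbp2 at 0.77 in place of 0.09 (unadjusted p 0.0224) and Mfap2 at -0.60 in place of -1.12 (unadjusted p 0.142). For AngII+LY against AngII the smallest p values belonged to Ltbp2 (-0.27) and Mfap2 (-0.43), and none of the 6 reached that threshold. After GC correction 2 of the 6 were lower at it, against 6.13% of all genes, and Ltbp2 stood at -0.67, at an unadjusted p of 0.0425.

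Among the other fibulins, Efemp2, which encodes fibulin-4 and is required for elastic fibers and lysyl oxidase activation, was at 946 to 3299 normalized counts in AngII and 3376 to 7265 in Ctrl mice (log2 fold change -1.02, SE 0.35, edgeR adjusted p = 0.105), with -0.52 after GC correction, at an unadjusted p of 0.0641, and -0.73 without Ctrl 1, at 0.0555. Efemp1, fibulin-3, had an estimate of 0.63 in AngII against Ctrl and -1.07 (SE 0.37, edgeR adjusted p = 0.121) in AngII+LY against AngII, the latter -0.64 after GC correction, at an unadjusted p of 0.0925. Fbln7 was scarce and stood at -1.68 (SE 1.22) in the latter comparison. Of the EMILIN relatives, Mmrn1 was 2.95 higher on the log2 scale in AngII than in Ctrl (SE 1.01, edgeR adjusted p = 0.103), with 1 AngII library at 21481 and the lowest at 748 normalized counts, and Emilin2 stood at -1.06 there. After GC correction Emilin2 was at -0.32 in AngII against Ctrl, at an unadjusted p of 0.580. Emilin2 was 1.40 (SE 0.59, and 0.96 after GC correction, at an unadjusted p of 0.116) and Mmrn1 -1.74 (SE 0.96) in AngII+LY against AngII.

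Among genes that activate or assist lysyl oxidases, Atp7a had an adjusted p equal to the smallest of any tested gene in AngII+LY against AngII. It encodes the copper transporter that loads lysyl oxidases in the secretory pathway. Its normalized counts were 630 to 1160 in Ctrl, 1249 to 1817 in AngII and from 291 up to 717 in AngII+LY mice, and AngII was apart from both. Its log2 fold change was 0.90 (SE 0.29, edgeR adjusted p = 0.0902) in AngII against Ctrl and -1.67 (SE 0.29, edgeR adjusted p = 0.0568) in AngII+LY against AngII. After GC correction these were 0.42, at an unadjusted p of 0.0788, and -1.12. DESeq2 called Atp7a in both comparisons, and limma and the non-legacy form of edgeR's test called it in the second. Postn, which encodes periostin, a matrix protein that helps activate lysyl oxidase through BMP1, was at 68172 to 84679 in AngII mice, above the 12745 to 41131 of AngII+LY mice (-1.51, SE 0.43, edgeR adjusted p = 0.0793). Ctrl mice spanned 25775 to 89796 Postn counts and so overlapped with both groups, and the Postn estimate was -0.92 after GC correction. Of the 10 tested genes of this list, 4 had estimates above 0 in AngII+LY against AngII. At an unadjusted p under 0.05, 1 was higher and 2 were lower there, against 10.1% and 12.4% of all genes. GC correction made it 1 and 4, against 9.03% and 6.13%. Fn1, which encodes fibronectin, was at -0.63 (SE 0.21, edgeR adjusted p = 0.0998) in AngII against Ctrl and at -0.44 after GC correction, at an unadjusted p of 0.0707.

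ADAMTS and ADAMTS-like proteins act on fibrillin microfibrils, and 6 of their 8 genes had estimates below 0 in AngII against Ctrl, where 52.7% of all genes did. Of the 8, 3 were lower at an unadjusted p under 0.05, against 11.7% of all genes, and 1 after GC correction, against 3.03%. Adamtsl4 (-0.80, SE 0.26) and Adamts10 (-0.84, SE 0.31) were without overlap there, as were 7.56% of all genes in that direction. After GC correction they stood at -0.14 and -0.54, with unadjusted p of 0.486 and 0.0477. In AngII+LY against AngII, Adamtsl3 was without overlap (-1.09, SE 0.34, edgeR adjusted p = 0.0960) and Adamts6 stood at -1.03 (SE 0.38), with -0.60 after GC correction, at an unadjusted p of 0.108. However, 5 of the 8 had estimates above 0 in that comparison. At an unadjusted p under 0.05, 1 was higher and 2 were lower, against 10.1% and 12.4% of all genes. After GC correction it was 0 higher and 1 lower, against 9.03% and 6.13%.

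Enzymes that degrade elastin had estimates below 0 in AngII against Ctrl in 9 of 9 tested genes, against 52.7% of all genes, and 2 were lower at an unadjusted p under 0.05, against 11.7%. After GC correction 7 of 9 were below 0 with 2 at that threshold, against 3.03% of all genes lower, and without Ctrl 1 it was 7 of 9 with 0 at it, against 1724 of 19145 genes lower. Of the macrophage markers, 4 of 6 were also below Ctrl in AngII mice, and their part in this list's values was not tested. The 2 were Mmp9 (-2.35, SE 0.89), a gelatinase at 23.5 ± 19.2 normalized counts (SD, n = 4) in AngII and 122 ± 60.6 in Ctrl mice without overlap, and the collagenolytic cathepsin Ctsk (-0.82, SE 0.38), and their unadjusted p without Ctrl 1 was 0.0584 and 0.130. The smallest p values in AngII+LY against AngII belonged to Mmp2 (-0.85, SE 0.41) and Ctsb (-0.20, SE 0.17), and none reached that threshold. After GC correction 1 of the 9 was lower at it, Mmp2 at -0.99 with an unadjusted p of 0.0140. Of the inhibitors, Timp1 was higher in AngII than in Ctrl by 1.19 (SE 0.40, edgeR adjusted p = 0.0971) and the cathepsin inhibitor Cst3 stood at -0.95 (SE 0.28, edgeR adjusted p = 0.0747), and at -0.50 after GC correction. Timp3, an inhibitor that binds to the matrix, was without overlap in AngII+LY against AngII (-0.78, SE 0.26, edgeR adjusted p = 0.111) and at -0.50 after GC correction, at an unadjusted p of 0.0804, while Timp2 was at -0.46 (SE 0.23) and at -0.67 after it, at an unadjusted p of 0.00347. The elastin receptor genes Ctsa (-0.63, SE 0.25) and Neu1 (-0.56, SE 0.24) were at an unadjusted p under 0.05 in AngII against Ctrl, but stood at -0.03 and -0.16 after GC correction, with unadjusted p of 0.866 and 0.405, and had unadjusted p of 0.0765 and 0.135 without Ctrl 1. Their estimates in AngII+LY against AngII were 0.27 and 0.51, and -0.05 and 0.36 after GC correction.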

How the data were processed

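Per the labels and methods, the authors checked and trimmed reads (FastQC), used HISAT2 for alignment to GRCm39 and featureCounts for counting. The deposited table is announced as normalized, but it holds raw counts. Lengths and GC content came from GENCODE vM39, with no match for 618 genes (0.0361% of counts). The members and gene lists were chosen with earlier results of these data known. All members are named, and from each related list the 2 genes with the smallest p in AngII against Ctrl and the 2 in AngII+LY against AngII. A mean of 10 or more counts was required (19145 genes). One edgeR 4.0.16 fit (R 4.3.3, default quasi-likelihood test, TMM) covered all 4 groups, with Benjamini-Hochberg adjustment over all genes. A call took adjusted p under 0.05 and a log2 fold change beyond 0.5 either way, the cut-off in the study's methods. The captions of the study's volcano plots give a higher fold change cut-off and do not say that p was adjusted. Labels do not say more of the replicates than that they are separate samples, so p-values measure the spread between these samples. Alternatives were RLE size factors, DESeq2 1.42.0 (the authors' tool), limma 3.58.1 on log2(CPM + 0.5), no filter, fits restricted to the compared groups, a replicate block, a loess GC correction (span 0.3), block and GC correction together, and each mouse left out. The non-legacy quasi-likelihood test was added after seeing the data. Tests were checked on simulated counts.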

Additional observations from a re-analysis of the deposited data

Results flagged for a closer look

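In groups of 4 mice, a sample was looked at again where its gap to the nearest other, divided by the range of the group, exceeded Dixon's 95% critical value for 4 samples. Over 30 groups (10 genes in Ctrl, AngII and AngII+LY) this marked 5 values. With independent, normally distributed values chance marks about 1 in 20 groups. That rate need not hold here, since the counts were not log-transformed and the groups share libraries and correlated genes. Ctrl 1 was high for 3 genes: Eln at 22320.3 normalized counts (gap over range 0.895), Mfap4 at 42506 (0.915) and Lox at 1650.2 (0.853). The same library had 0.994% of its counts on smooth muscle markers and stood apart in other marker shares given above. The part of these in the 3 values was not tested. Fbn2 was high in AngII+LY 4, at 963 (gap over range 0.956), a library with 4.19% of its counts on cardiomyocyte markers. Fbln1 was low in Ctrl 3, at 15925 (0.926), while the next Ctrl library was at 28656.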

How the results depend on the processing

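Over the 4 comparisons between groups, 542 of 560 member estimates kept their sign and their side of the threshold with single mice left out. Under the other alternatives 340 of 360 did so. The 560 include omissions of a mouse from neither compared group, where the estimate could hardly move. With 0 members called by edgeR at the start, keeping the side of the threshold was also likely. These counts therefore say little about how firm the estimates are. DESeq2 called 1 member in AngII against Ctrl (Fbn1), 2 in AngII+LY against AngII (Fbn1 and Loxl2) and 2 in AngII+LY against Ctrl (Fbln1 and Fbln5), where edgeR called 0. With single mice left out the number called by edgeR was 0 to 1 in AngII against Ctrl and 0 to 1 in AngII+LY against AngII, and the 1 came from leaving out AngII 1. Over all genes edgeR called 0 in each comparison. DESeq2 called 2648, 2062, 343 and 21 genes in AngII against Ctrl, AngII+LY against AngII, AngII+LY against Ctrl and LY against Ctrl. The non-legacy edgeR test called 468 higher and 87 lower in the first, 79 and 97 in the second and 0 in the others, limma 211 and 41, 213 and 224, and 0, and edgeR with no filter 106 and 17, 0 and 1, 7 and 6, and 0. Leaving out AngII 1 gave 1726 and 842 calls in the first 2 comparisons, leaving out Ctrl 4 gave 649 higher and 150 lower in the first, and leaving out AngII 2 gave 313 and 47 there. The planned legacy form of the edgeR test is the reported fit itself. GC correction turned Eln to 0.28, Loxl1 to 0.094 in AngII against Ctrl, Eln to -0.26 and Lox to 0.20 in AngII+LY against AngII, Eln to 0.023 and Fbn1 to 0.20 in AngII+LY against Ctrl, and Emilin1 to 0.032 in LY against Ctrl. Across all genes it changed the split of unadjusted p under 0.05 from 2575 higher and 2240 lower to 2356 and 581 in AngII against Ctrl, from 937 and 1175 to 2366 and 588 in AngII+LY against Ctrl, and from 1937 and 2378 to 1728 and 1174 in AngII+LY against AngII. limma gave Lox 0.073 in AngII against Ctrl.

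The replicate numbers of the labels did not pair the mice: deviations of same-numbered libraries correlated at -0.113 to 0.08, and those of other pairs at -0.1 to 0.175. A fit with the replicate number as a block called 0 members in every comparison, as without it, and turned Fbln1 in LY against Ctrl to -0.10. The block together with GC correction gave Eln 0.31 and Loxl1 0.10 in AngII against Ctrl, Eln -0.29 and Lox 0.25 in AngII+LY against AngII, and Eln 0.019 and Fbn1 0.21 in AngII+LY against Ctrl.

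With single mice left out, estimates that changed sign ranged as follows. In AngII against Ctrl, Eln ran from -0.45 to 0.069 and Lox from -0.48 to 0.62. In AngII+LY against AngII, Eln ran from -0.25 to 0.18, Lox from -0.28 to 0.034 and Loxl1 from -0.46 to 0.10. In AngII+LY against Ctrl, Eln ran from -0.57 to 0.10 and Lox from -0.63 to 0.47. In LY against Ctrl, Fbln1 ran from -0.14 to 0.39, Emilin1 from -0.41 to 0.19, Mfap4 from -1.37 to 0.17 and Loxl1 from -0.53 to 0.16. The causes were not tested. AngII 4 was the shallowest library, and counting limits the precision there only for Fbn2, with 2 counts.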
